A study of Mus musculus with 4 samples.

Results

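The genes described here mark or build the cells of tendon, cartilage and bone, and their mRNA was followed in cultured mouse embryonic fibroblasts (MEFs) as the cultures became crowded. They were chosen by symbol, as the probes outside the array controls whose gene name is Scx, Tnmd, Sox9, Sox5, Runx2, Sp7, Phex, Spp1, Alpl or Mgp. Of these 10 symbols 9 were on the array, read by 16 of its 41174 probes, or 43 spots in all. Alpl had no probe under that name, and the probe carrying its older symbol Akp2 is given beside the others without being counted among the 9. The symbols were listed with their changes on these same arrays already known, so their values are a description and no test was made of them.

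Tendon, cartilage and bone cells arise from shared mesenchymal progenitors, and transcription factors set which tissue forms. Scx starts the tendon programme, Sox9 with its partners Sox5 and Sox6 starts the cartilage programme, and Runx2 followed by Sp7 starts the bone programme. The other genes act at the cell surface or in the matrix: Tnmd is a membrane protein of mature tendon, Phex and Alpl are enzymes that govern phosphate and mineral, and Spp1 and Mgp are matrix proteins that hold back mineral growth. Embryonic fibroblast cultures are prepared from whole embryo tissue and can hold progenitors of these tissues.

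The cells came from C57BL/6J embryos whose genotype is given as Lats2+/+, called WT, or Lats2-/-, called KO. Lats2 is a kinase of the Hippo pathway, which holds back the coactivators YAP and TAZ in crowded cells. For each genotype a subconfluent low density culture taken at 48 h was hybridised on 2-colour arrays against a high density culture kept for 3 to 5 days, so density and time in culture changed together. Each genotype had 2 arrays, the second with Cy3 and Cy5 exchanged, and by the titles these are a dye swap. Each genotype and density therefore gave 1 replicate, and the SD printed with a log2 change is that of its 2 arrays or 2 dyes, a technical error only. Both WT arrays lay on 1 slide and the KO arrays on 2 others, so slide and genotype cannot be told apart. The labels do not state the number of embryos behind a culture.

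In a channel, 52.8% to 67.66% of spots were well above background, by the flag of the scanner software, and no spot was saturated. The 4 Lats2 probes disagreed on the genotype label. On the arrays labelled KO, 3 of them, which lie close together on chromosome 14, were higher, by log2 differences of 1.19, 1.39 and 1.38 at low density and 0.91, 1.34 and 1.49 at high density. A_52_P425064, which lies apart from them, was lower in the direction of the label, by -0.63 at low and -1.26 at high density. Every genotype named here is the one on the label. The probes were not placed relative to the deleted stretch, and a probe outside it checks nothing, so these values do not settle whether the labels are right. The study also examined the knockout by western blotting, which was not used here. With exchanged labels every direction between genotypes given below would turn. All 8 fibroblast markers were well above background in every channel, with a summed signal between 197466 and 358801 units. Single markers moved within that sum. Pdgfra was higher in KO by log2 differences of 4.46 at low and 3.10 at high density. Its other probe gave 0.92 and 1.46. S100a4 differed by 0.31 at low density and was lower in KO by -1.36 at high density. Of the osteoclast markers, Acp5 and Dcstamp were well above background in no channel, Ctsk was in 3 of 8 channels and Calcr and Ocstamp were in 2 each. Of the macrophage markers, Adgre1 and Itgam were well above background in no channel and Aif1 in 1, whereas Cd68 and Cd14 were in all 8 and Csf1r and Lyz2 in 6. Of the muscle genes, Myog, Myf5 and Des were well above background in no channel, Myod1 in 1 and Chrna1 in 2. Actc1 and Acta1 were in all 8. Of the endothelial genes, Pecam1, Cdh5, Tie1 and Emcn were in no channel, Tek in 1 and Kdr in 2. For Chrna1 and Kdr these were the low density WT channels. The summed signal of the 5 osteoclast markers stayed between 350 and 374 units. That of 7 macrophage markers was 1039 and 969 units in WT at low and high density and 1833 and 5029 units in KO, where Lyz2 carried it. That of 6 Schwann cell and neural markers was 10929 and 2876 units in WT and 1379 and 1064 units in KO, most of it from Nes in WT. That of 7 skeletal muscle markers was 38490 and 8864 units in WT and 38106 and 21133 units in KO, nearly all from the actin genes Actc1 and Acta1. The sums were 1039 to 2595 units for the adipocyte, 392 to 420 for the endothelial and 421 to 496 for the epithelial markers. The part of these shifts in the values below was not tested, and fewer cells of a type cannot be told apart from less RNA per cell in such bulk samples.

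A gene was counted as tested in a contrast when its probe was well above background in both dyes on at least 1 side, and as changed when its mean log2 difference reached 1 in size, a 2-fold change, with the same sign in both estimates. With density in WT, 6 of the 9 genes could be tested, and Scx, Sox9 and Phex were higher and Spp1 lower, 4 changed where 13.3% of all tested probes changed. With density in KO, 7 could be tested, and Tnmd and Mgp were higher and Spp1 lower, 3 changed where 9.63% of all tested probes changed. Subtracting the WT from the KO density effect gave 2-fold or more for 4 of 6 genes, above 0 for Mgp and below 0 for Scx, Phex and Spp1, where 7.99% of probes were. Between genotypes at low density 3 of 7 genes differed, Scx, Spp1 and Mgp all lower in KO, where 13.9% of probes differed. At high density 4 of 7 differed, Tnmd higher and Scx, Phex and Spp1 lower in KO, where 13.0% of probes differed. As the genes were listed for such changes, nothing is read from these counts. Sox5 and Sp7 could be tested in no contrast.

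**Figure D1:**
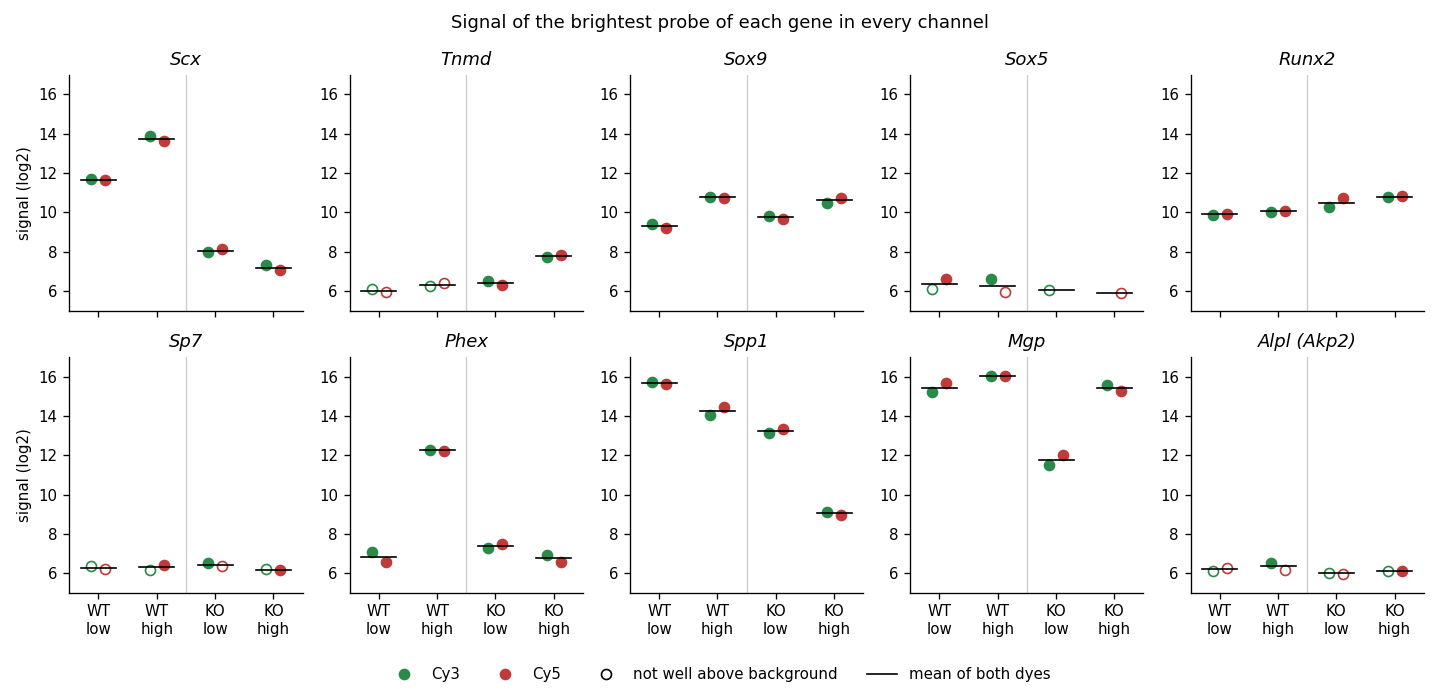
Signal of the brightest probe of each gene (log2, after normalization) in the Cy3 and Cy5 channels of WT and KO cells at low and high density; open circles are not well above background and lines are the mean of both dyes. Phex stands at 12.23 and 12.28 in crowded WT cells and between 6.59 and 7.49 in the other channels, whereas Sp7 and Sox5 stay at 6.62 or below throughout.

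Scx, which encodes scleraxis, the transcription factor of tendon progenitors, was read by probe A_51_P380432 at chr15:76286533-76286592 (plus strand, mouse build mm8). Its log2 signal in WT was 11.69 (Cy3) and 11.64 (Cy5) at low density and 13.89 and 13.62 at high density. In KO it was 8.0 and 8.11 at low density and 7.33 and 7.05 at high density. Every WT channel thus lay above every KO channel, and the smallest gap was wider than 3 log2 units. Scx rose with density in WT by 2.09 ± 0.23, a 4.26-fold change, with 1.93 and 2.25 on the single arrays. In KO the log2 change was -0.86 ± 0.12, short of 2-fold, with -0.95 and -0.78 on the arrays. The density effects therefore ran in opposite directions and differed by -2.95 ± 0.11. KO cells held less Scx mRNA than WT cells by 12.2-fold at low density (-3.61 ± 0.11) and by 94.7-fold at high density (-6.57 ± 0.01).

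Tnmd, which encodes tenomodulin, a membrane glycoprotein of maturing tendon, did not follow Scx. Its probe A_51_P108183, at chrX:129209298-129209357 (plus strand), was well above background in no WT channel, where it read 6.08 and 5.96 at low and 6.23 and 6.42 at high density. In KO it was well above background in all channels, with 6.48 and 6.30 at low and 7.75 and 7.84 at high density. The flag is set array by array, and sparse KO carried it at 6.30 where crowded WT did not at 6.42. At high density the gene that marks late tendon thus gave the stronger signal in the genotype with the lower Scx signal. Tnmd rose with density in KO by 1.4 ± 0.07, or 2.64-fold, with 1.35 and 1.45 on the single arrays. At high density it was at least 2.74-fold higher in KO than in WT, and at low density at least 1.17-fold, bounds that put each dim WT channel at its lowest signal above background where its own was lower. With the processed signals of the scanner software in place of the background correction and normalization within arrays used here, the KO rise was 3.07.

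**Figure D2:**
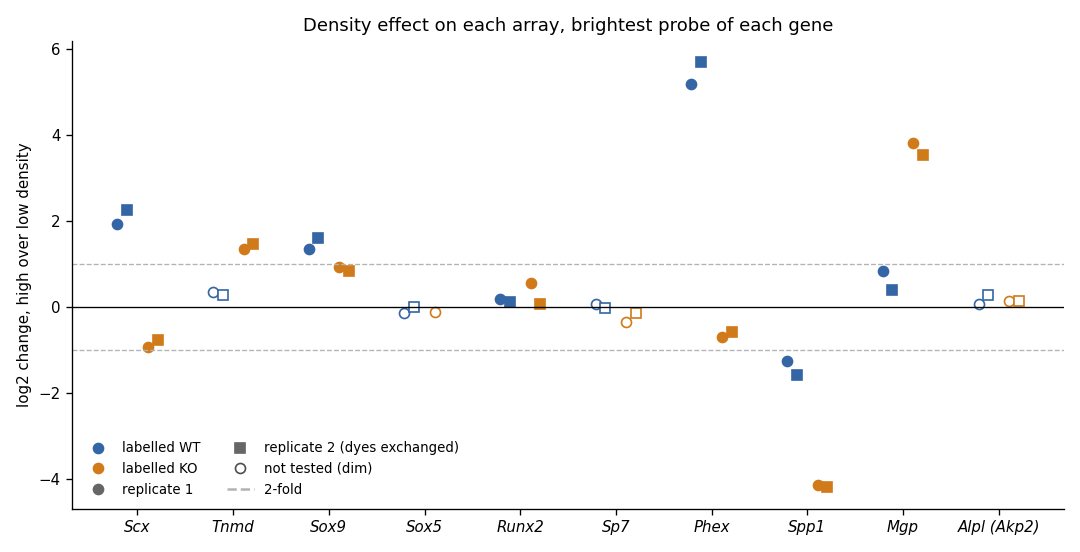
Log2 change from low to high density on each of the 4 arrays, for the brightest probe of each gene; blue is labelled WT, orange is labelled KO, squares are the arrays with exchanged dyes, open symbols were too dim to be tested and dashed lines mark 2-fold. Scx and Phex lie above 0 on both WT arrays and below 0 on both KO arrays, Spp1 falls on all 4 arrays, and Mgp rises by 3.80 and 3.53 on the KO arrays against 0.82 and 0.38 on the WT arrays.

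Sox9, the transcription factor that commits cells to cartilage, rose with density in WT and changed the same way but by less than 2-fold in KO. Its brightest probe, A_52_P577484 at chr11:112601784-112601843 (plus strand), read 9.41 and 9.18 at low and 10.77 and 10.75 at high density in WT. In KO it read 9.81 and 9.68 at low and 10.50 and 10.73 at high density. The high density channels lay above the low density channels in each genotype, and in crowded cells the KO channels lay just below those of WT. The log2 change was 1.47 ± 0.17 in WT, where the arrays gave 1.34 and 1.59, and 0.87 ± 0.06 in KO, where they gave 0.92 and 0.83, below 2-fold. Probe A_52_P214630 at chr11:112603585-112603644, spotted 10 times on each array, gave 1.29 ± 0.03 and 0.83 ± 0.06. The SD of its log2 ratio over those 10 spots was between 0.0365 and 0.0681 on the 4 arrays. The difference of the density effects, -0.59 at the first probe and -0.46 at the second, did not reach 2-fold, nor did the genotype differences at low density (0.45 and 0.25) and at high density (-0.14 and -0.21). The Sox9 probe A_51_P451606 read 6.47 or less in every channel, and its mean change with density was at most 0.28.

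Sox5, a partner of Sox9 without an activation domain of its own, was read by 3 probes on the minus strand of chromosome 6, at chr6:143790222-143790281, chr6:143864240-143864299 and chr6:144062082-144062141. The first was well above background in 2 of its channels, both on WT replicate 2, where low and high density read 6.62 and 6.60. On KO replicate 2 its spot carried an outlier flag and was left out. The other probes read between 5.84 and 6.15 in every channel, near the bottom of the scale. Sox6, which acts together with Sox5, was well above background in no channel either.

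Runx2, the transcription factor that commits cells to bone, was well above background in all 8 channels and changed little. Its probe A_51_P230942, at chr17:44067120-44067179 (minus strand) and spotted 10 times, read 9.87 and 9.93 at low and 10.03 and 10.06 at high density in WT, and 10.28 and 10.72 at low and 10.78 and 10.83 at high density in KO. Each KO channel exceeded each WT channel. The log2 change with density was 0.14 ± 0.06 in WT and 0.31 ± 0.35 in KO, where the arrays gave 0.55 and 0.06 and so differed by more than the mean change. The genotype difference was 0.60 ± 0.27 in sparse and 0.76 ± 0.02 in crowded cells, a 1.51-fold and a 1.69-fold excess in KO. Probe A_52_P415319 at chr17:44067258-44067317 gave 0.57 and 0.76 for the same differences, and A_52_P460545 at chr17:44071031-44071090 gave 0.64 and 0.80. The most upstream probe, A_52_P55876 at chr17:44277234-44277293, stayed close to background and pointed the other way, with -0.23 at high density. Probes were not placed on exons, so it is not known which Runx2 transcripts they share.

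Sp7, which encodes osterix and acts after Runx2 in osteoblasts, was near background. Its probe A_52_P236709, at chr15:102185295-102185354 (minus strand), read between 6.15 and 6.51 and was well above background in 3 of 8 channels, never in both dyes of a condition. The alkaline phosphatase gene, under its older symbol Akp2 (A_51_P494125, chr4:137013819-137013878, minus strand), read between 5.98 and 6.53 and was well above background in 2 of 8 channels. No contrast could therefore be drawn for the osteoblast factor downstream of Runx2 or for the enzyme that frees phosphate for mineral.

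The promoters of Runx2, Phex and Spp1 are shown because Phex and Spp1 changed most with density within a genotype while the factor Runx2 changed little. RefSeq windows of 300 bases, from 250 bases before to 50 after the start of each gene (build GRCm38.p6), were found for 6 of the 10 genes, Tnmd, Sox5, Runx2, Phex, Spp1 and Alpl. The motifs searched on both strands were the RUNX core TGTGGT, the TEAD core GGAATG, the SOX core ACAATG and the TATA box TATAAA. Capitals mark the matches, of which none overlap.
Runx2 chr17:44814578-44814877 (minus strand): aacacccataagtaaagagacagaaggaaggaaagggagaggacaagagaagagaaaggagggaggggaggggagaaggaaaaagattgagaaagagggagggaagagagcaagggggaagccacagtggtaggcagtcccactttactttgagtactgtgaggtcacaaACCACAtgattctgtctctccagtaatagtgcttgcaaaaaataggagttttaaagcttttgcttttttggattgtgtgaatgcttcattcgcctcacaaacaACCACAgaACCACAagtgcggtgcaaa
Phex chrX:157415237-157415536 (minus strand): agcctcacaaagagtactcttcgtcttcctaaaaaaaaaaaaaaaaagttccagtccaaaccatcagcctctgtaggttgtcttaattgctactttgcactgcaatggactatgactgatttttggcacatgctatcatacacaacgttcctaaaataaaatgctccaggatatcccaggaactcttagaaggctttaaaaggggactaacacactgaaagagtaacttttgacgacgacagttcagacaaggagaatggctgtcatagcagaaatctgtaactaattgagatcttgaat
Spp1 chr5:104434861-104435160 (plus strand, first of 2 starts listed): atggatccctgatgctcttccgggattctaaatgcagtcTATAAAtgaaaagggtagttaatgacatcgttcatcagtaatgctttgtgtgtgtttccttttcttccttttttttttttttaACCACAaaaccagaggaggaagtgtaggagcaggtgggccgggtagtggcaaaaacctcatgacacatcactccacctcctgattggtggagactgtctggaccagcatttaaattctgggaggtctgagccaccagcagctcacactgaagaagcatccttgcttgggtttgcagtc
The Runx2 window held the RUNX core 3 times, read as ACCACA on the strand shown, at positions -80, 24 and 32 from the start. The Spp1 window held it at -128 and a TATA box at -211, and the Phex window held none of the 4 motifs. Among 32851 promoters of this length 16.8% held the RUNX core, 13.6% the TATA box, 14.7% the TEAD core and 12.6% the SOX core. The TEAD core was found in the window of Sox5, at -102 and -9, and in no other of the 6 genes. Phex (38.7%), Runx2 and Spp1 (45.3% each) had a lower GC content than the median promoter, at 52.7%.

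Phex, an endopeptidase of osteoblasts and osteocytes whose loss causes phosphate wasting, gave the widest density effect of these genes. Its probe A_51_P468249 at chrX:152502904-152502963 (minus strand) read 7.05 and 6.59 in WT at low density and 12.28 and 12.23 at high density. In KO it read 7.30 and 7.49 at low and 6.91 and 6.59 at high density. Only the crowded WT cells stood apart, and the other 6 channels lay between 6.59 and 7.49. Phex rose in WT by 5.43 ± 0.37, or 43.2-fold, with 5.17 and 5.69 on the single arrays, while in KO the change was -0.64 ± 0.08 (-0.70 and -0.58). The density effects differed by -6.08 ± 0.28, a 67.5-fold difference. At low density the KO cells were at 0.57 ± 0.47 relative to WT, with 0.24 in Cy3 and 0.91 in Cy5, whereas at high density they were 45.3-fold lower (-5.50 ± 0.19). The background offset draws such dim signals together, and with the processed signals of the scanner software the rise in WT was 6.65 and the difference between genotypes at high density was -6.76.

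Spp1, which encodes osteopontin, a secreted phosphoprotein that binds mineral and integrins, fell with density in both genotypes. Its probe A_51_P358765 at chr5:104681071-104681130 (plus strand), spotted 10 times, read 15.74 and 15.62 in WT at low density and 14.04 and 14.47 at high density. In KO it read 13.12 and 13.32 at low and 9.11 and 8.97 at high density. The 4 conditions did not overlap, and crowded KO cells were the lowest. The log2 fall in WT was -1.42 ± 0.22, or 2.68-fold, with -1.26 and -1.58 on the arrays. In KO it was -4.18 ± 0.04, or 18.1-fold, with -4.15 and -4.20. The KO effect was larger by 6.76-fold (-2.76 ± 0.18). The SD of the log2 ratio over the 10 spots of 1 array was between 0.0281 and 0.0706, an error of the spots only. KO cells held 5.51-fold less Spp1 mRNA than WT cells at low density (-2.46 ± 0.22) and 37.2-fold less at high density (-5.22 ± 0.41). Spp1 is also made by macrophages and osteoclasts. Of the 4 macrophage markers that were read in most channels, Cd68 differed between KO and WT by -0.10 at low and -0.38 at high density and Csf1r had no steady sign, with -0.10 and 0.95 in the single dyes at low and 1.21 and -0.07 at high density. Lyz2 was higher in KO, at least 14.9-fold at low density and by 4.75 at high density, where its other tested probe gave 0.62. Cd14 was lower in KO by -1.80 and -1.59. The part of such cells in the Spp1 values was not tested.

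Mgp, the matrix Gla protein, a vitamin K-dependent inhibitor of calcification, rose with density in KO. Its probe A_51_P426270 at chr6:136836800-136836859 (minus strand) read 15.22 and 15.67 in WT at low and 16.05 and 16.04 at high density. In KO it read 11.48 and 12.02 at low and 15.55 and 15.28 at high density. Sparse KO cells alone were low, and the crowded KO cells reached the level of sparse WT cells. Mgp rose with density in KO by 3.67 ± 0.19, or 12.7-fold, with 3.80 and 3.53 on the arrays. In WT it changed by 0.60 ± 0.31, short of 2-fold, with 0.82 and 0.38. The KO effect exceeded the WT effect by 3.07 ± 0.12. The genotype difference was thus 13.0-fold lower in KO at low density (-3.70 ± 0.06) and -0.63 ± 0.18 at high density, short of 2-fold.

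**Figure D3:**
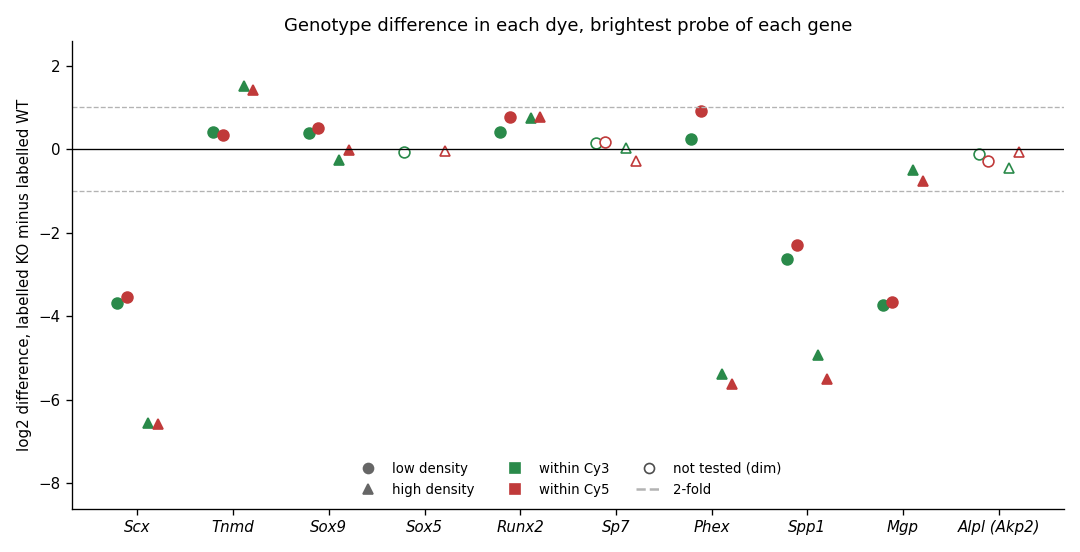
Log2 difference, labelled KO minus labelled WT, within Cy3 (green) and within Cy5 (red) for the brightest probe of each gene; circles are low density, triangles are high density, open symbols were too dim to be tested and dashed lines mark 2-fold. Scx and Spp1 are lower in KO at both densities and lowest at high density, Phex is lower at high density only (-5.37 and -5.63), and Mgp is lower at low density (-3.74 and -3.66).

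For genes with like profiles over the 8 channels, each probe was centred on its own mean and ranked by Euclidean distance in log2 units among 23525 probes well above background in at least 4 channels. Nearest to Scx were Hoxa7 (distance 1.42), Smpdl3a (1.59) and Tmem176b (1.59). Smpdl3a and Tmem176b shared the rise in WT (2.72 and 2.75), but changed by -0.22 and 0.03 in KO where Scx changed by -0.86, while Hoxa7 shared mainly the genotype difference. Nearest to Phex were 6330403K07Rik (2.0), Cables1 (2.15) and Cml4 (2.20), with WT rises of 3.67, 4.91 and 3.52. Nearest to Spp1 were Phlda1 (1.86), Tinagl (2.35) and Cav2 (2.57), and nearest to Mgp were Egfr (1.47), D12Ertd647e (1.5) and Bcl3 (1.57). The brightest probes of Sox9, Runx2 and Tnmd had closer neighbours, at distances of 0.180 (Rab36), 0.232 (AK049403) and 0.189 (Crip3). Sox5, Sp7 and Akp2 were too dim to be ranked.

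Further genes of these tissues were read from 5 lists of 87 genes, 86 of them on the array, with the brightest tested probe standing for a gene. With density in WT, 57 of them could be tested, and 15 were higher and 8 lower, where 7.63% of all probes were higher and 5.71% lower. In KO 56 could be tested, with 21 higher and 3 lower, where 5.90% and 3.73% of probes were. The difference of density effects was at least 2-fold above 0 for 13 and below 0 for 7 of 50 genes (3.77% and 4.22% of probes). In KO relative to WT, 12 genes were higher and 11 lower of 56 at low density (6.86% and 7.06% of probes), and 17 were higher and 13 lower of 61 at high density (6.41% and 6.61%). The lists were written with earlier results of these arrays known and were given no test of their own.

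**Figure D4:**
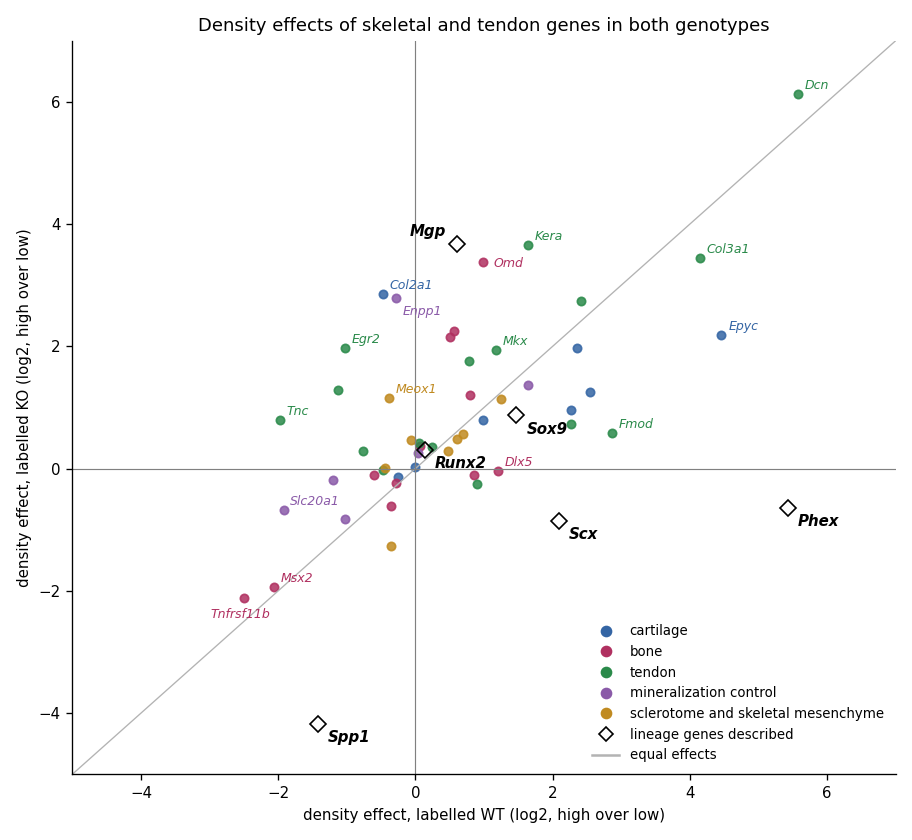
Density effect in labelled KO cells against that in labelled WT cells (log2, high over low) for the 50 list genes tested in both, coloured by list, and for the 6 lineage genes tested in both (open diamonds); the grey line marks equal effects. Dcn and Col3a1 lie high in both genotypes, Phex and Scx lie to the lower right, and Mgp, Col2a1 and Enpp1 lie high in KO and within 2-fold in WT.

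The cartilage genes that changed with density all rose. Of 25 on the array 12 were tested in WT, with 5 higher, none lower and a median of 0.94, and 11 in KO, also with 5 higher, none lower and a median of 0.95, where the median of all probes was 0.01 in each and 13.3% of probes changed in WT and 9.63% in KO. Epyc, a small proteoglycan of growth cartilage, was at least 20.4-fold higher at high density in WT and at least 4.04-fold in KO, but its other tested probe gave log2 changes of 2.74 and 0.92, the second below 2-fold. Col11a1, a collagen of the cartilage fibril, rose by 2.55 in WT and 1.25 in KO, whereas its other tested probes gave 1.33 and 1.25 in WT but 0.69 and 0.26 in KO. The parathyroid hormone receptor Pth1r rose by 2.36 and 1.97. Col2a1, the main collagen of cartilage and a target of Sox9, went its own way. Its brightest probe, A_51_P317141, read 12.84 and 12.76 in WT at low and 12.29 and 12.35 at high density, and 9.83 and 9.31 in KO at low and 12.12 and 12.74 at high density. It changed by -0.48 in WT and rose by 2.86 in KO, and was lower in KO by -3.23 at low density only. Another tested Col2a1 probe disagreed, with -1.88 in WT, 0.10 in KO and genotype differences of -5.92 and -3.93, so the recovery at high density rests on the brightest probe. Nkx3-2, a repressor that keeps cells on the cartilage path, was at least 3.62-fold lower in KO at low and at least 4.47-fold lower at high density. Of the cartilage genes 1 was higher and 2 lower in KO among 12 tested at low density, where 13.9% of all probes differed, and 1 higher and 5 lower among 14 at high density, where 13.0% did. At high density Matn4 was at least 4.33-fold higher in KO, and Trps1 (-2.27) and Comp (-1.51) were lower. Acan, the aggregating proteoglycan of cartilage, read between 6.21 and 6.69 and was well above background in neither channel of crowded WT cells.

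Of 22 bone genes, 14 were tested with density in WT, with 1 higher and 2 lower where 13.3% of all probes changed, and 13 in KO, with 4 higher and 2 lower where 9.63% did. Between genotypes 14 were tested, and 1 was higher and 1 lower in KO at low density, a share near the 13.9% of all probes, and 1 higher and 2 lower at high density, where 13.0% of probes differed. Tnfrsf11b, which encodes the osteoclast inhibitor osteoprotegerin, fell by -2.50 in WT and -2.12 in KO, and the homeobox gene Msx2 fell by -2.06 and -1.94. Dlx5, a homeobox gene upstream of Sp7, rose by 1.20 in WT against -0.04 in KO, a difference of -1.24. At high density it was lower in KO by -2.02. The type I collagen genes, expressed in fibroblasts as well, rose by 2.16 (Col1a1) and 2.25 (Col1a2) in KO and changed by 0.50 and 0.56 in WT, but other Col1a1 probes rose by 1.61 and 1.32 in KO and another Col1a2 probe changed by 0.05. Omd, a keratan sulphate proteoglycan of bone, rose in KO by 3.38 and stood above WT by 2.82 at low and 5.20 at high density. Of the markers of mature osteoblasts and osteocytes, Ibsp, Dmp1 and Bglap were dim, whereas Phex read 12.28 and 12.23 in crowded WT cells. Ibsp and Dmp1 were well above background in no channel, and Bglap, which encodes osteocalcin and has near-identical copies whose signal cannot be told apart, read 6.78 and 6.87 in crowded WT cells and was above background in no KO channel, at least 1.60-fold lower there.

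Of the tendon genes that changed with density most rose. Of 20, 16 were tested in WT, with 7 higher and 3 lower and a median of 0.84, and 17 in KO, with 8 higher, none lower and a median of 0.79, beside 13.3% and 9.63% of all probes changed. In KO relative to WT 5 were higher and 3 lower among 14 at low density, and 8 higher and 2 lower among 17 at high density, beside 13.9% and 13.0% of all probes. Among the 3 lower at low density was Col5a1, at -1.17, whose other tested probe gave 0.13. Dcn, a collagen-binding proteoglycan, rose by 5.57 in WT and 6.12 in KO, and Col3a1 by 4.14 and 3.44, although another Dcn probe rose by 2.86 in KO and the other Col3a1 probes gave less in both genotypes. Between genotypes Dcn was higher in KO by 2.93 at low and 3.49 at high density, where its other tested probe gave 2.56. The collagen gene Col12a1 was higher in KO by 1.79 and 2.26. Mkx, a homeobox factor of tendon that acts beside Scx, read 8.65 and 8.78 in WT at low and 9.77 and 10.01 at high density. In KO it read 9.30 and 9.37 at low and 11.12 and 11.42 at high density. Its rise was 1.18 in WT and 1.94 in KO, where Scx had a negative sign, and Mkx was higher in KO by 1.38 at high density. Fmod, a proteoglycan of the collagen fibril, rose by 2.87 in WT, changed by 0.58 in KO, short of 2-fold, and was lower in KO by -1.63 at high density. Kera was at least 2.83-fold higher at high density in WT and at least 10.6-fold in KO. The early growth response factors Egr1 and Egr2, which act on tendon collagen genes, were lower in KO at low density by -2.15 and -3.07. Egr2 fell by -1.03 in WT and rose by 1.98 in KO. Tnc, the matrix protein tenascin C, fell by -1.98 in WT, changed by 0.79 in KO and was higher in KO by 1.84 at high density. Its other probes gave -1.10 and -1.31 in WT and 0.77 and 1.39 for that genotype difference.

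Of the 8 genes that control mineral on the array 6 were tested, with 1 higher and 3 lower with density in WT, beside 13.3% of all probes changed, and 2 higher and none lower in KO, beside 9.63%. Between genotypes none was higher and 1 lower in KO at low density, a share near the 13.9% of all probes, and 2 were higher and 1 lower at high density, beside 13.0%. Enpp1, which makes the mineral inhibitor pyrophosphate, read 11.52 and 11.58 in WT at low and 11.30 and 11.25 at high density. In KO it read 10.49 and 10.78 at low and 13.61 and 13.23 at high density. Like Mgp, Enpp1 rose with density in KO (2.79), and in WT it changed by -0.28, a difference of 3.07. Ank, the pyrophosphate transporter, fell by -1.20 in WT, changed by -0.18 in KO and was lower in KO at both densities (-2.26 and -1.25). Vkorc1, which recycles the vitamin K needed by Mgp, rose by 1.64 in WT and 1.37 in KO. Slc20a1, a phosphate importer, fell by -1.92 in WT and changed by -0.68 in KO, but its other tested probe changed by -0.25 and -0.16. It was counted as higher in KO at high density, where that other probe gave -0.12.

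Of 11 factors of the sclerotome and early skeletal mesenchyme, 9 were tested with density in each genotype, with 1 higher and none lower in WT, a share near the 13.3% of all probes, and 2 higher and 1 lower in KO, beside 9.63%. Between genotypes 10 were tested, with 5 higher and 4 lower in KO at low density, where 13.9% of all probes differed, and 5 higher and 3 lower at high density, where 13.0% did. Higher in KO were Prrx1 (2.30 at low and 2.19 at high density), Twist2 (2.02 and 2.47) and Msx1 (1.83 and 2.37), factors of limb and facial mesenchyme. The other Msx1 probe gave 0.71 and 0.91, and 3 of the other Prrx1 probes gave 0.36 to 0.84 at low and 0.66 to 0.99 at high density. Lower in KO were Foxc2 (-2.48 and -3.40) and Pax9, a factor of the sclerotome, which was at least 4.02-fold lower at low and at least 6.87-fold lower at high density. Meox1, a factor of the somite, changed by -0.38 with density in WT and rose by 1.16 in KO, a difference of 1.54. Its other tested probe gave 0.70 in KO, below 2-fold, and a difference of 1.02.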

How the data were processed

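RNA from cultured cells was labelled with Cy3 or Cy5 and hybridised to Agilent whole mouse genome arrays. Per the labels and methods, the authors extracted spot values with Agilent Feature Extraction 10.5.1.1. The deposited scanner files hold mean spot intensity, local background intensity and quality flags, and the deposited series matrix holds log10 ratios, high over low density, checked against the files. Gene symbols and positions (mm8) are those of the array.

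Intensity was background corrected (normexp, offset 50), loess normalized within arrays and Aquantile scaled between arrays with R 4.3.3 and limma 3.58.1. Control spots and spots with an outlier flag were left out and spots of a probe averaged. Density effects were averaged over 2 arrays and genotype differences over 2 dyes. A size rule (2-fold, same sign in both estimates) replaced a test, as each genotype and density had 1 replicate. The rule was run on simulated data with planted changes larger than the threshold and noise set to the spread between the 2 estimates. The simulation held no variation between cultures, so it checks the calculation only. Python 3.11.15 with pandas 2.3.3 and numpy 2.4.6 was used. The number of arrays limits the precision.

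Every one of the 10 genes is named. From each list, the 2 genes with the largest called rise and the 2 with the largest called fall per contrast were eligible, with Acan, Col2a1, Sox6, Ibsp, Bglap, Dmp1, Mkx, Fmod and Enpp1 whatever their values. Pth1r, Comp, Col1a1 and some values of the others were added after values were seen. The genes and lists were chosen with earlier results of these data known. Alternatives changed the background correction, the normalization, the scaling, the filter on dim probes, the size threshold, the choice of probe and the arrays used.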

Additional observations from a re-analysis of the deposited data

Results flagged for a closer look

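Among the lineage genes and the genes of the 5 lists, marker lists left out, 10 whose density effects differed by 2-fold or more between genotypes had an effect that went one way on both WT arrays and the other way on both KO arrays. The difference, KO minus WT, was not tested, since each genotype had 1 replicate. Among the lineage genes it was -2.95 for Scx and -6.08 for Phex, both of which rose in WT. Among the list genes it was 3.34 for Col2a1, 3.01 for Egr2, 2.77 for Tnc, 3.07 for Enpp1, 1.54 for Meox1, 2.41 for Col5a1 and 1.04 for Col5a2, which were below 0 on both WT arrays and above 0 on both KO arrays. It was -1.24 for Dlx5, whose KO change was only -0.04. Other tested probes gave less, 1.99 for Col2a1, 1.55 and 1.68 for Tnc, 1.26 for Col5a1 and 1.02 for Meox1.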

How the results depend on the processing

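Density effects were taken within each array, and their difference between arrays of the same dye orientation. No pairing of independent cultures was possible, because the labels carry no replicate numbers and the 2 arrays of a genotype are a dye swap. The replicate numbers used here name an array and its dye swap. The methods' t-test was not run, for want of replicates. Of the 9 genes, 3 changed with density in KO, but 5 did with the processed signals of the scanner software and with the log ratios of the series matrix, which added Scx (-1.36) and Phex (-1.28), and 6 at a 1.4-fold threshold. At low density 3 genes differed between genotypes, but 5 did with the processed signals, which added Tnmd (1.99) and Phex (1.16), and 5 at 1.4-fold. At 1.4-fold the list genes changed were 37 rather than 23 with density in WT and 41 rather than 23 between genotypes at low density. Leaving out an array in turn, with the size alone deciding, left the count of lineage genes as it was in all 5 contrasts (4, 3, 4, 3 and 4), and that of list genes at 23 in WT, 22 to 25 in KO, 17 to 20 for their difference, 21 to 23 at low and 31 to 32 at high density.

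No called gene of the 9 changed sign under any alternative. Below the threshold, the sign turned for Sox9 at high density without scaling between arrays (0.14) and for Runx2 with density in WT under median centring (-0.02), and the Runx2 difference of 0.16 became -0.04 without KO replicate 1 and without WT replicate 1. Without that scaling Runx2 reached 1.04 in KO over WT at high density, while the median of all probes moved from 0.04 to 0.27 and the share of higher calls from 49.2% to 70.2% (49.3% to 72.3% at low density). Under median centring that share fell from 57.2% to 43.9% with density in WT, from 61.3% to 40.4% in KO and from 47.2% to 41.0% for the difference. The size of change of dim probes depended on the processing, most of all for the difference of Phex. It was -6.08, became -6.91 with a background offset of 16, and -7.93 with the processed signals, which also replace the normalization within arrays.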
